A study of Mus musculus with 2 samples.

Results

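Immunoglobulin gene segments were measured by RNA sequencing in 2 libraries of kidney resident macrophages, one sorted as CD11c+ (R2a) and one as CD11c- (R2b). The members were selected on the summed reads of both libraries. They were the table rows annotated as immunoglobulin variable, diversity, joining or constant genes of the heavy, kappa and lambda loci that had 5 or more reads in R2a plus R2b. Of 262 such annotated rows 31 were members, among 48795 rows naming a gene. They comprised 6 of 13 constant, 21 of 218 variable, 4 of 14 joining and 0 of 17 diversity segments. The other 196 rows had no read in either library and 35 had 1 to 4 reads. At the threshold stood 5 members with 5 reads and 6 rows with 4 reads.

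The cells came from wild-type C57BL/6 mice aged 8 weeks. Both groups shared this strain and age, and they differed in the CD11c gate. Each library was made from pooled RNA of 6 to 8 mice. Each population thus had 1 library, no spread between animals was measured and no test across samples was possible. A ratio below is one of CPM, read counts scaled to the TMM-adjusted total of the library, and the range in parentheses is its exact 95% interval (Clopper-Pearson), which covers counting error only. The call rule asked for CPM at least 2-fold apart and an interval that excluded a ratio of 1.

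Reads on genes numbered 11811923 for R2a and 23915896 for R2b, and R2b was thus 2.02 times as deep. All 11 genes of a macrophage marker list had reads, with a summed level of 10236 CPM in R2a against 12847 CPM in R2b, among them the growth factor receptor gene Csf1r, the macrophage surface receptor gene Adgre1 and the complement subunit genes C1qa and C1qb. None was called, and the mannose receptor gene Mrc1 differed most, at 858 CPM in R2a against 1651 CPM in R2b. Of the members, 30 of 31 identifiers matched the annotation with their version, and no member shared exon sequence with another gene at the same position.

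An antibody is built from heavy and light chains. In a developing B cell, recombination joins a variable, a diversity and a joining segment of the heavy locus, and a variable and a joining segment of a light locus, and splicing connects the joined exon to a constant region. Clonally related B cells share the variable segment they chose, and plasma cells transcribe the joined gene at very high levels. The heavy locus can also be transcribed before it is joined, as so-called germline transcripts that hold constant sequence and no joined variable segment. Macrophages are known for binding antibodies through Fc receptors and not for making them.

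Members took 2606 reads in R2a against 5486 in R2b, or 0.0221% and 0.0229% of the reads on genes. Summed over the members, the level was 215 CPM in R2a against 236 CPM in R2b, at a ratio of 0.911 (0.869 to 0.954). Most of these reads fell on 1 gene, the constant region gene of IgM. Ighm, Ighd and the joining segments differed by less than 2-fold between the libraries and Igha by more, whereas the variable segments with the most reads were different ones in each library.

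Of the 31 members 5 were called higher and 9 lower in R2a, and 17 were not called. Among all 20645 rows with 5 or more reads 8.08% were called, 4.17% higher and 3.92% lower. Among the 8428 rows with 5 to 100 reads, the range in which every variable and joining member lies, 16.6% were called, 8.95% higher and 7.7% lower. All 5 higher calls and 8 of the 9 lower calls were variable segments, 0 of 4 joining segments were called, and the 1 constant gene called was Igha. The median log2 ratio (CPM plus 0.5 in each library) was -0.52 over the members and -0.02 over all rows with 5 or more reads. A member with few reads had to have them in 1 library or the other to enter the rule, so these counts describe the members and do not show that immunoglobulin genes differ more than others.

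**Figure D1:**
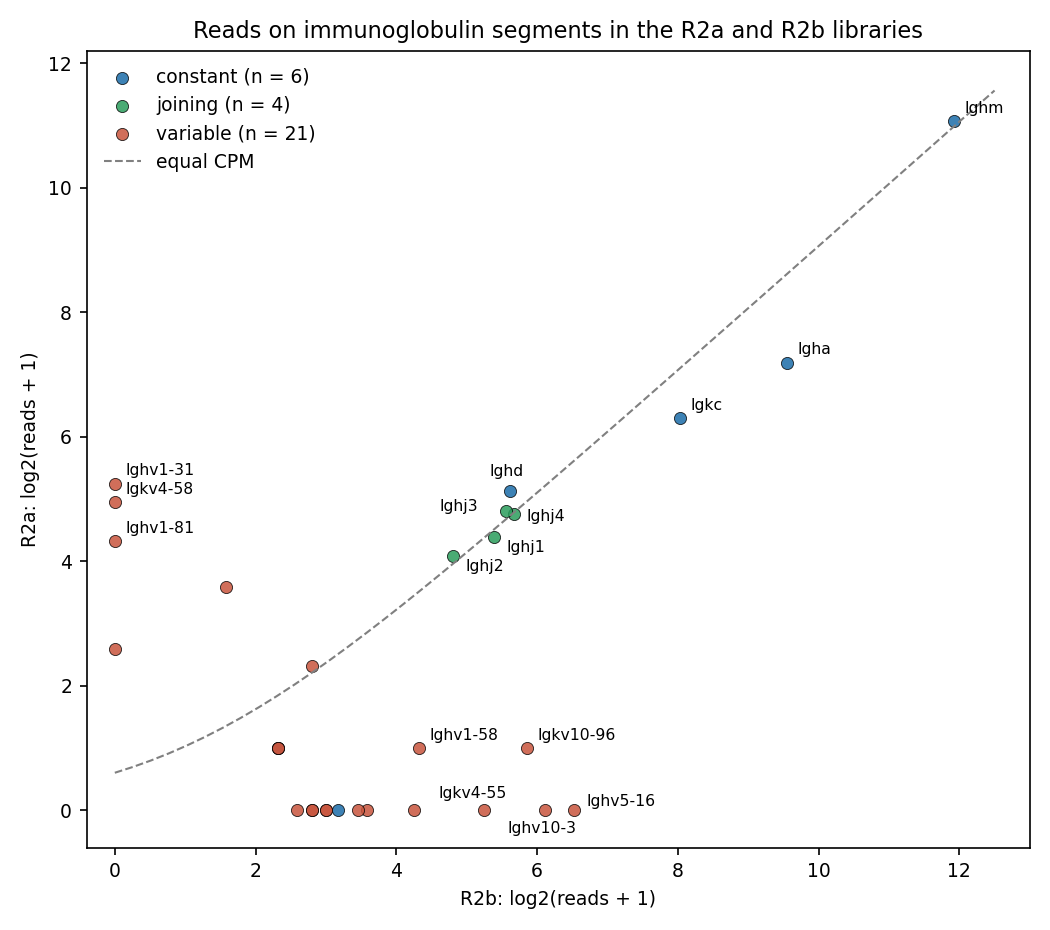
Reads of each of the 31 members in R2b (horizontal) and R2a (vertical), both as log2(reads + 1), with constant segments in blue, joining in green and variable in red; the dashed line marks equal CPM. Ighm and the 4 joining segments lie near the line, Igha and Igkc below it, and most variable segments lie along one axis or the other.

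Ighm (ENSMUSG00000076617.9, GRCm38 chromosome 12, 113418558 to 113422730, minus strand), the constant region gene of IgM, had 2149 reads in R2a against 3898 in R2b. Its level was 177 CPM and 167 CPM, a ratio of 1.06 (1.00 to 1.11), and with total-count scaling the ratio was 1.12 (1.06 to 1.18). Ighm alone made up 82.5% of the reads of all members in R2a (80.9 to 83.9) and 71.1% in R2b (69.8 to 72.3).

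Igha (ENSMUSG00000095079.6, chromosome 12, 113254830 to 113260236), the constant region gene of IgA, the main antibody class of mucosal surfaces, had 145 reads in R2a against 746 in R2b. It stood at 11.9 CPM and 32.1 CPM, 2.68 times lower in R2a (2.24 to 3.23). In bulk RNA, fewer cells of a type and less RNA per cell cannot be told apart, which holds for each result here. Of the heavy constant reads Igha took 6.23% in R2a (5.28 to 7.28) and 15.9% in R2b (14.9 to 17.0), and these intervals did not overlap. Ighm took 92.3% and 83.0% of the same reads.

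Ighd, the constant region gene of IgD, which naive B cells carry beside IgM, had 34 reads in R2a against 48 in R2b, at a ratio of 1.36 (0.849 to 2.15). It took 1.46% of heavy constant reads in R2a (1.01 to 2.03) and 1.02% in R2b (0.755 to 1.35). The IgG class was nearly without reads. Ighg2b, an IgG constant region gene, had 1 read in R2a and 4 in R2b, and Ighg2c had 1 and 0 and was no member. Ighg1, Ighg3 and Ighe, the constant region gene of IgE, had 0 reads in both libraries, where a count of 0 allows up to 3 reads, or 0.247 CPM in R2a against 0.129 CPM in R2b.

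Igkc (ENSMUSG00000076609.2, chromosome 6, 70726435 to 70726966, plus strand), the constant region gene of the kappa light chain, had 78 reads in R2a against 260 in R2b. Its level was 6.43 CPM and 11.2 CPM, 1.74 times lower in R2a (1.35 to 2.27), which did not reach the 2-fold rule although the interval excluded 1. Iglc1, a lambda light chain constant gene on chromosome 16, had no R2a read against 8 in R2b, too few for a call. Kappa took 78 of 78 light constant reads in R2a (95.4% to 100%) and 260 of 268 in R2b, or 97.0% (94.2 to 98.7), and kappa is known as the prevailing light chain of mice.

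Every antibody holds equal numbers of heavy and light chains, and the constant genes were far from equal. Per kilobase of exon, Ighm stood at 93.9 CPM in R2a against 88.8 CPM in R2b, and Igkc at 12.1 CPM and 21 CPM. The level of Ighm per kilobase was 7.77 times that of Igkc in R2a (6.2 to 9.87) and 4.23 times in R2b (3.73 to 4.81). Igha stood below Igkc on this scale, at 4.48 CPM per kilobase in R2a and 12 in R2b, a ratio to Igkc of 0.371 (0.280 to 0.495) and 0.572 (0.496 to 0.661). Exon lengths are those of the annotation, which counts secreted and membrane forms together.

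**Figure D2:**
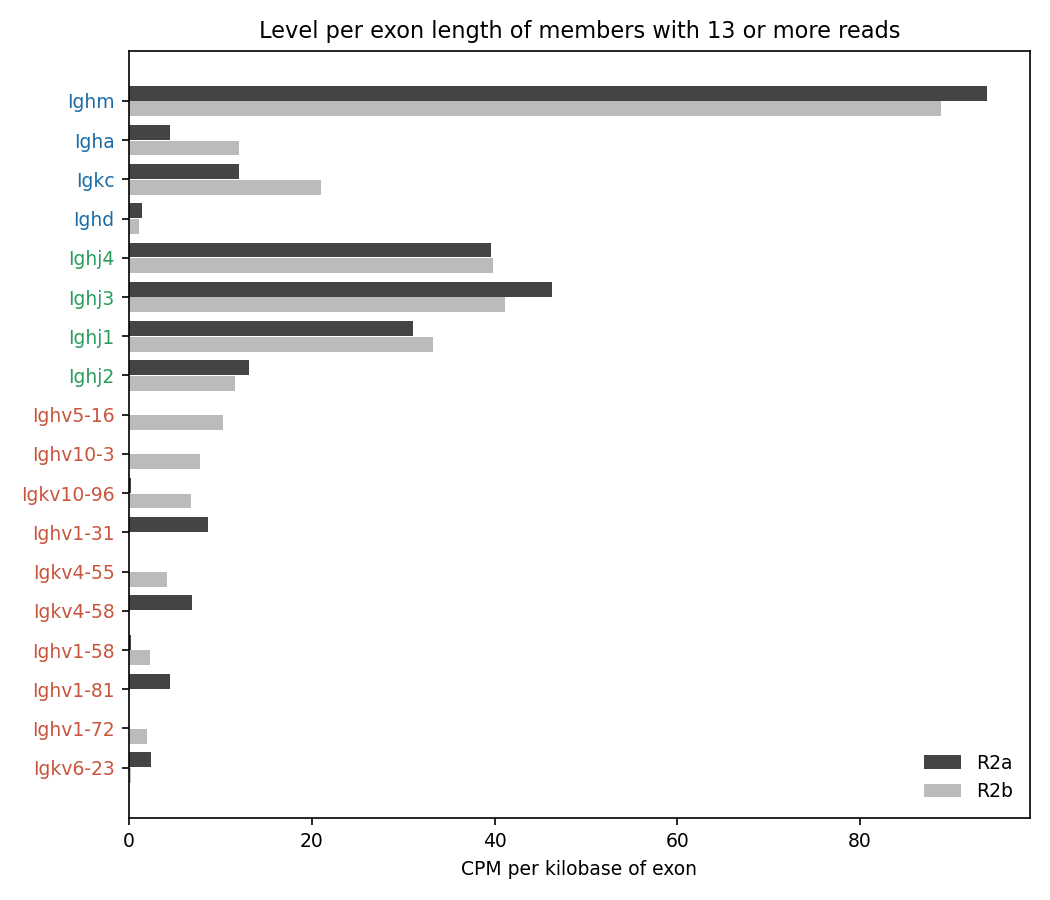
CPM per kilobase of annotated exon for the members with 13 or more reads in the 2 libraries together, R2a in dark and R2b in light bars, with constant genes labelled in blue, joining in green and variable in red. Ighm reaches 93.9 in R2a and 88.8 in R2b, Igkc 12.1 and 21, the joining segments 11.6 to 46.3, and no variable segment exceeds 10.3.

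Reads also fell on all 4 joining segments of the heavy locus, short stretches that complete the variable domain and lie next to one another over 1320 bases of chromosome 12. The nearest of them is separated from Ighm by 5783 bases, the stretch known to hold the intronic heavy chain enhancer. A joined allele keeps the chosen joining segment and those between it and Ighm, whereas an unjoined allele keeps all of them. The segments are shown because all 4 had reads in both libraries. They come from GENCODE M21 transcripts of GRCm38, minus strand, and capitals mark the 12 bases that encode the conserved tryptophan, a glycine, a variable residue and a glycine.
Ighj1 (chr12:113429781-113429833): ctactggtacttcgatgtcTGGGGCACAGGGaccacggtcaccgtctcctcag
Ighj2 (chr12:113429468-113429515): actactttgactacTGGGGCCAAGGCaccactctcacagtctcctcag
Ighj3 (chr12:113429085-113429132): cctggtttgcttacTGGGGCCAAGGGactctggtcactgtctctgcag
Ighj4 (chr12:113428514-113428567): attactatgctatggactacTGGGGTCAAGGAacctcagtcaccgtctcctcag

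Ighj4 had 26 reads in R2a against 50 in R2b, and Ighj3 had 27 and 46. Ighj1 had 20 reads in R2a against 41 in R2b, and Ighj2 had 16 and 27. In both libraries reads were spread over all of the segments, and each segment held a like share of the joining reads in R2a and in R2b. For Ighj2, the lowest, this share was 18.0% (10.6 to 27.5) and 16.5% (11.1 to 23.0). For Ighj1 it was 22.5% (14.3 to 32.6) and 25.0% (18.6 to 32.3), and for Ighj4 it was 29.2% (20.1 to 39.8) and 30.5% (23.5 to 38.1). Summed, the joining segments stood at 7.33 CPM in R2a against 7.05 CPM in R2b, at a ratio of 1.04 (0.795 to 1.35).

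The joining segments stood in a like proportion to Ighm in both libraries. For each Ighm read there were 0.0414 joining reads in R2a (0.0331 to 0.0512) and 0.0421 in R2b (0.0358 to 0.0492). The 5 joining segments of the kappa locus had 0 reads, and Iglj3 of the lambda locus had 0 reads in R2a against 4 in R2b. Of the 17 diversity segments only Ighd1-1 had reads, 0 in R2a and 3 in R2b. The reads were 75 bases long and the joining segments are shorter, so reads that count for them extend into their surroundings. Levels per kilobase of such short segments are therefore not comparable with those of longer genes. The Ighj2 row also holds a second annotated transcript that reaches upstream of the printed segment.

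Variable segments carry most of the antigen-binding surface, and 12 heavy and 9 kappa segments were members. The 10 with the most reads are shown by the last 120 bases of their coding sequence, GRCm38, minus strand for all, from GENCODE M21. All 10 were called, and they show how unlike or alike the segments are. Capitals mark the codon of the conserved cysteine, after which the hypervariable joint begins.
Ighv5-16 (chr12:113838526-113838645, R2b): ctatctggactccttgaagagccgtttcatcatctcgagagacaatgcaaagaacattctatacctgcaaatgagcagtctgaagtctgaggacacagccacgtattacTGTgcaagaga
Ighv10-3 (chr12:114523441-114523560, R2b): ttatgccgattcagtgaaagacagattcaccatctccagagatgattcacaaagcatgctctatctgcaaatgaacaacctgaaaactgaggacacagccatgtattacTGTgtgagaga
Ighv1-58 (chr12:115312166-115312285, R2b): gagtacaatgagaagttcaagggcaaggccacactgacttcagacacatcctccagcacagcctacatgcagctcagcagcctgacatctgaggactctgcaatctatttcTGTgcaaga
Ighv1-72 (chr12:115757984-115758103, R2b): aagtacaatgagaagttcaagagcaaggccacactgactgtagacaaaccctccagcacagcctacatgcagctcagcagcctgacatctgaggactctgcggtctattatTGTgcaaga
Ighv1-31 (chr12:114829264-114829383, R2a): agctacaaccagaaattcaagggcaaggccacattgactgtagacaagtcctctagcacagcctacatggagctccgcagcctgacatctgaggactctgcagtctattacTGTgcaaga
Ighv1-81 (chr12:115920279-115920398, R2a): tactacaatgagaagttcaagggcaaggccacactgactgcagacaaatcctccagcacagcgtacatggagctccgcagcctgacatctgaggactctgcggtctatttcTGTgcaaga
Igkv10-96 (chr6:68631963-68632082, R2b): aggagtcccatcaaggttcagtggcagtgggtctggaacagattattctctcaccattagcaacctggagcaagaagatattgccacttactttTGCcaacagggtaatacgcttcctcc
Igkv4-55 (chr6:69607275-69607394, R2b): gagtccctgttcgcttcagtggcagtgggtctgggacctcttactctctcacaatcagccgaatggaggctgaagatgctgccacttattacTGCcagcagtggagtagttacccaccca
Igkv4-58 (chr6:69500254-69500373, R2a): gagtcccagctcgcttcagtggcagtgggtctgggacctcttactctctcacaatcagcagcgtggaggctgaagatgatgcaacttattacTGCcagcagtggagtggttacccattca
Igkv6-23 (chr6:70260409-70260528, R2a): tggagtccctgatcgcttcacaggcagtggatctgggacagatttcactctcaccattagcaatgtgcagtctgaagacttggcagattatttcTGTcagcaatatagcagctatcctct

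The library named after each coordinate is the one with more of its reads. Over their whole coding sequence the 6 heavy segments were between 55.3% and 88.9% identical to one another, with Ighv1-58 and Ighv1-81 the closest pair, and the 4 kappa segments between 63.1% and 89.2%, with Igkv4-55 and Igkv4-58 the closest. Each member of these closest pairs had nearly all of its reads in the other library from its partner.

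Ighv5-16 had 0 reads in R2a against 91 in R2b, at least 12.6 times lower in R2a by the exact interval. Setting the count of 0 to 3 reads, with the other count taken as exact, gave 15.8 times. Ighv10-3 had 0 and 68 reads, at least 9.36 times lower by the interval, and Igkv4-55 had 0 and 37, at least 4.98 times lower. Igkv10-96 had 1 read in R2a and 57 in R2b, at a ratio of 0.0336 (0.000837 to 0.195). These 4 segments were at or next to 0 in the R2a library and led the R2b library.

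Ighv1-58 had 1 read in R2a and 19 in R2b, at a ratio of 0.101 (0.00243 to 0.635). Ighv1-72 had 0 reads in R2a against 18 in R2b, at least 2.29 times lower by the interval. The last members called lower were Ighv14-3 with 0 and 11 reads and Igkv12-44 with 0 and 10. By the interval their difference was at least 1.31 and 1.17 times.

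In the other direction, Ighv1-31 had 37 reads in R2a against 0 in R2b, at least 18.3-fold higher in R2a by the interval. Igkv4-58 had 30 and 0 reads, at least 14.7-fold higher, and Ighv1-81 had 19 and 0, at least 8.95-fold higher. Igkv6-23 had 11 reads in R2a against 2 in R2b, at a ratio of 10.5 (2.30 to 97.9). Ighv1-42 had 5 and 0 reads and was called on these 5 reads. The R2a library thus held its own leading segments, although it was the shallower of the 2 libraries.

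**Figure D3:**
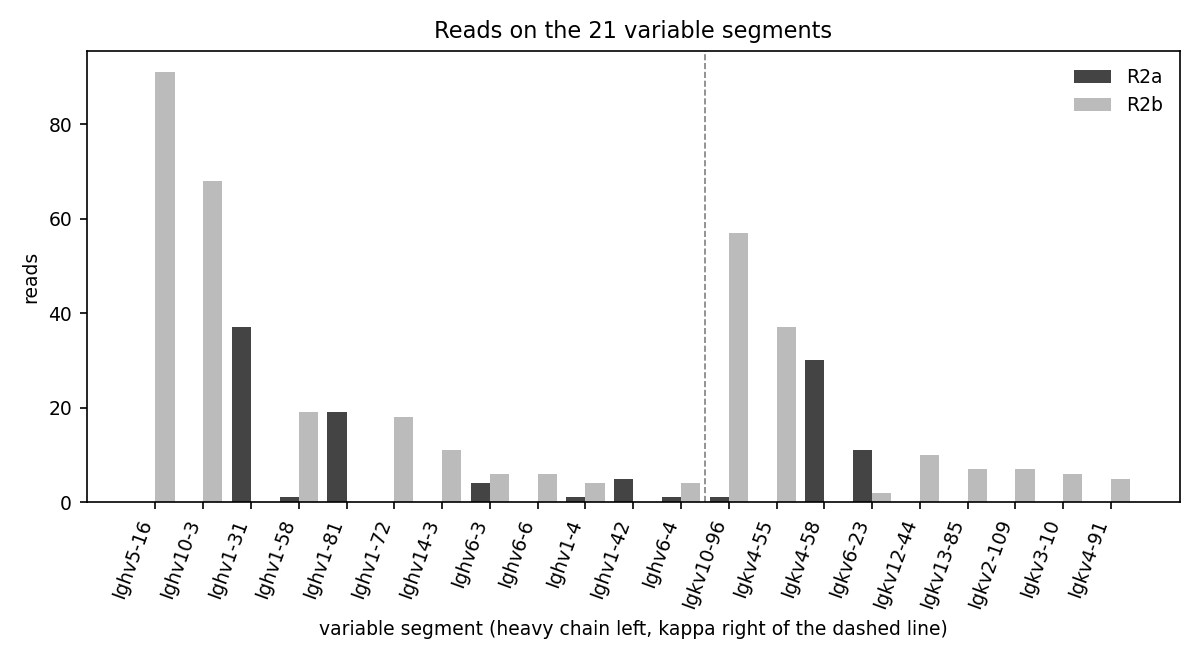
Reads of the 21 variable members in R2a (dark) and R2b (light), heavy segments left and kappa segments right of the dashed line, ordered by total reads. Every segment with 20 or more reads has at most 1 read in one of the libraries.

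Of the 21 variable members 11 had reads in R2b alone, 4 in R2a alone and 6 in both. Counted as at most 1 read in one of the libraries they were 19 of 21, compared with 15.2% of all rows with 5 to 100 reads. Rows near the minimum of 5 reads meet this more often, since the share was 5.37% for rows with 10 to 100 reads. For members with so few reads the 15.2% is therefore too low a comparison. The 6 shared members were 60% of the members with a read in R2a and 35.3% of those with a read in R2b, and they held 17.3% of the variable reads of R2a and 25.7% of those of R2b. All 7 variable members with 20 or more reads had at most 1 read in one of the libraries, compared with 1.16% of all 4486 rows with 20 to 100 reads. Among the 13 variable members with 10 or more reads it was 11, compared with 5.37% of all rows with 10 to 100 reads. These counts were chosen after the values were seen. The exceptions were Igkv6-23 and Ighv6-3, a heavy segment with 4 reads in R2a against 6 in R2b. The members not called had 5 to 10 reads in all.

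A few segments held most variable reads. The leading heavy segment took 54.4% of the heavy variable reads in R2a (Ighv1-31, 41.9 to 66.5) and 40.1% in R2b (Ighv5-16, 33.7 to 46.8). The 3 leading variable segments took 78.2% of all variable reads in R2a and 60.3% in R2b. By family, the large heavy family 1 held 63 of 68 heavy variable reads in R2a and 41 of 227 in R2b. Families 5 and 10 were represented by 1 member each, Ighv5-16 and Ighv10-3, and had no read in R2a. Over all 218 annotated variable rows, 31 had a read in R2a and 31 in R2b, and 10 had reads in both, which is 32.3% of each. Of the 218 rows, 31 had only 1 to 4 reads in all, and such rows often have reads in 1 library alone. The same share over all genes was not computed, so this overlap is no result about the segments.

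Some variable segments have near copies elsewhere in their locus, and a read that aligned to several places was counted for no gene, so the levels of single segments are incomplete to different degrees. Of the 75-base windows of Ighv5-16, Ighv1-58 and Ighv1-81, 0% occurred in a transcript of another gene, against 29.8% for Igkv4-55 and 71.7% for Ighv1-72, the highest among the members. The nearest annotated segment was between 85.8% identical, for Ighv5-16 and Ighv5-12, and 99.1% identical, for Ighv1-72 and Ighv1-62-3. These nearest segments had 0 reads in both libraries, except Igkv10-94 beside Igkv10-96, with 1 read in R2a and 2 in R2b, and Igkv6-15 beside Igkv6-23, with 0 and 2. Somatic mutation of joined segments also lowers the share of reads that align, and was not measured.

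Constant and variable segments were then compared as classes. Constant members held 2407 reads in R2a against 4964 in R2b, at a ratio of CPM of 0.930 (0.885 to 0.976). Without Ighm they held 258 and 1066 reads, and the ratio was 0.464 (0.403 to 0.532). Variable members held 110 and 358 reads, a ratio of 0.589 (0.471 to 0.731). Heavy and kappa variable segments had ratios of 0.574 (0.431 to 0.756) and 0.615 (0.423 to 0.876). Ighv5-16 alone held 91 of the 358 variable reads of R2b, and the ratio without it was 0.790 (0.627 to 0.990).

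Of constant plus variable reads, the constant share was 95.6% in R2a (94.8 to 96.4) and 93.3% in R2b (92.6 to 93.9). This order turned around without Ighm, when the constant share was 70.1% in R2a (65.1 to 74.7) and 74.9% in R2b (72.5 to 77.1), with intervals that overlap. In the kappa locus the intervals of the libraries overlapped. There the variable members had 0.538 reads for each Igkc read in R2a (0.361 to 0.793) and 0.504 in R2b (0.405 to 0.624). In the heavy locus they did not, and the variable members had 0.0316 reads for each Ighm read in R2a (0.0245 to 0.0403) and 0.0582 in R2b (0.0507 to 0.0666). Thus in both libraries Ighm had many more reads for each variable read of its locus than Igkc had. Part of this gap goes with exon length, 1886 bases for Ighm and 532 for Igkc. Per kilobase of exon the heavy ratio was 0.0136 in R2a and 0.0251 in R2b. The kappa ratio was 0.0865 and 0.0810, so the gap was smaller and in the same direction. Igha and the other heavy constant genes were left out of the heavy ratio. A read pair that touches a variable and a constant segment may be counted for neither, and the sources used here do not state the setting that decides this.

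**Figure D4:**
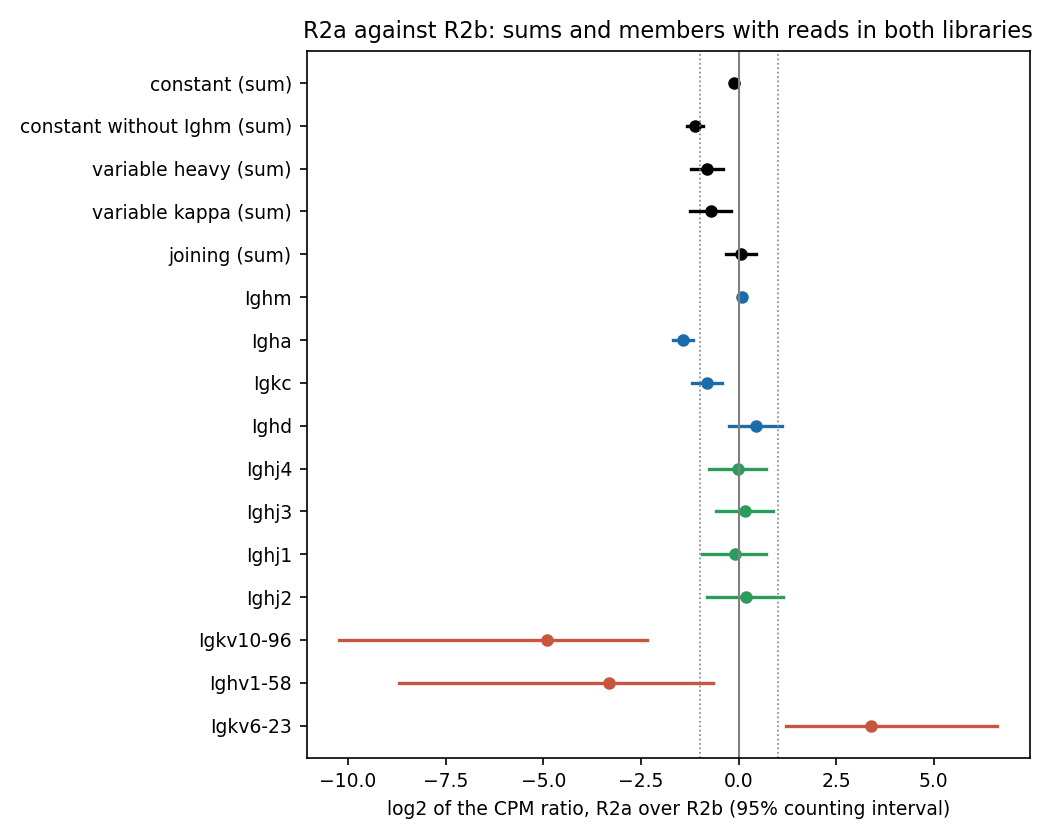
Log2 of the CPM ratio of R2a over R2b with its 95% counting interval, for sums of segment classes (black) and for members with 13 or more reads and a read in both libraries (constant in blue, joining in green, variable in red); dotted lines mark 2-fold. The joining segments and Ighd span 0, Igha lies beyond the 2-fold line, and the 3 variable segments lie away from 0 with wide intervals.

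Genes of the cells that make antibodies were set beside the segments. Of 13 B cell genes 3 were called lower and 0 higher in R2a, with a median log2 ratio of -0.49. Over all rows the same median was -0.02, and 3.92% were called lower (7.7% of those with 5 to 100 reads). The summed level of the 13 genes was 196 CPM in R2a against 211 CPM in R2b. Most of it came from Blnk, an adaptor of the B cell receptor that macrophages also express, which was at 132 CPM and 98.1 CPM. Bank1, a B cell scaffold gene, had 249 reads in R2a against 1414 in R2b, 2.96 times lower in R2a (2.59 to 3.40).

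Some genes that define B cells had few reads, whereas Cd79b and Cd22, given below, had more. Cd79a, a signalling chain of the B cell receptor, had 4 reads in R2a against 21 in R2b. Ms4a1, which encodes CD20, had 6 and 31 reads, and Pax5, the factor of B cell identity, had 3 and 25. Ms4a1 and Pax5 were called lower in R2a beside Bank1, and were named after their values were seen. Cd79a was not called (ratio 0.365, 0.0911 to 1.08). Of the 13 genes 8 had a ratio below 1, and the others included Ebf1, at 1.76 (0.94 to 3.27), and Fcer2a, at 1.92 (0.754 to 4.88), neither of them called. Cd79b, the other signalling chain, had 333 reads in R2a against 744 in R2b, at a ratio of 0.858 (0.752 to 0.978), and Cd22 had 91 and 249.

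Of 10 plasma cell genes 2 were called lower and 0 higher in R2a, with a median log2 ratio of -0.31, beside -0.02 over all rows, of which 3.92% were called lower (7.7% of those with 5 to 100 reads). Jchain, the chain that links IgA and IgM into polymers, had 35 reads in R2a against 141 in R2b, 2.10 times lower (1.44 to 3.14). Tnfrsf17, a survival receptor of plasma cells, had 4 and 26 reads, 3.39 times lower (1.18 to 13.4). The summed level was 205 CPM in R2a against 222 CPM in R2b, and most of it came from Xbp1 and Prdm1, which macrophages also express, at ratios of 0.887 (0.827 to 0.951) and 1.03 (0.953 to 1.11). Irf4 had a ratio of 0.872 (0.726 to 1.04). Of the 10 genes 8 had a ratio below 1, and the others were Prdm1 and Sdc1. Sdc1 had 17 reads in R2a against 23 in R2b, a ratio of 1.42 (0.711 to 2.77), and was not called. The intervals of Derl3, Fkbp11, Mzb1 and Pou2af1 included 1. The part of B and plasma cells in the values of the segments was not tested.

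**Figure D5:**
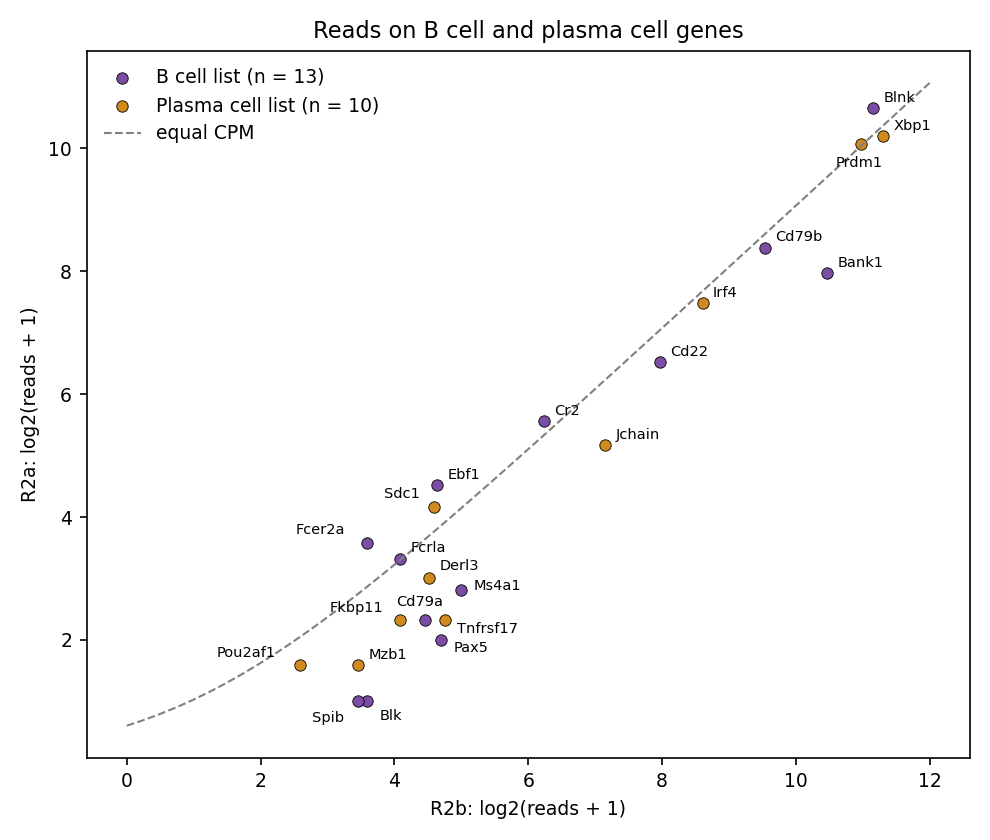
Reads of the 13 B cell and 10 plasma cell genes in R2b (horizontal) and R2a (vertical), both as log2(reads + 1), with the dashed line at equal CPM. Blnk, Xbp1 and Prdm1 lie near the line at high counts. Pax5, Ms4a1, Jchain and Tnfrsf17 lie below it, and Sdc1, Ebf1 and Fcer2a lie above it.

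The machinery of recombination was at or near 0. Rag1, Dntt, Igll1, Vpreb2 and Vpreb3 had 0 reads in both libraries, Rag2 had 3 and 4, and Vpreb1 had 4 and 0. Rag1 and Rag2 encode the recombinase, Dntt adds bases at the joint, and Igll1, Vpreb1 and Vpreb2 encode the surrogate light chain of B cell precursors. The general repair gene Ung had 19 and 66 reads, and 0 of the 2 list members with 5 or more reads were called.

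Receptors that bind antibodies were abundant in both libraries, at 1998 CPM in R2a against 2158 CPM in R2b summed over 14 genes. None of the 13 with 5 or more reads was called, and their median log2 ratio was -0.08. The inhibitory receptor Fcgr2b had 6632 reads in R2a against 15611 in R2b, at a ratio of 0.814 (0.791 to 0.838), and Fcgr3 had a ratio of 0.830 (0.803 to 0.859). Fcgr4 had 4414 and 6934 reads, a ratio of 1.22 (1.17 to 1.27), and the shared signalling chain Fcer1g had 1.02 (0.977 to 1.06). Fcmr, the IgM receptor of lymphocytes, had 1 read in R2a and 12 in R2b. Its ratio of 0.160 was beyond 2-fold, and it was not called because its interval (0.00374 to 1.08) included 1.

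Markers of other lymphoid cells were low or mixed. The 6 T cell genes summed to 2.88 CPM in R2a against 5.03 CPM in R2b, and 1 of them, Cd3e, was called lower, with 4 reads in R2a against 34 in R2b. Of 5 plasmacytoid dendritic cell genes with 5 or more reads 1, Siglech, was called lower, and the list summed to 332 CPM and 368 CPM. With 3.92% of all rows, and 7.7% of those with 5 to 100 reads, called lower, single calls in lists this short are no result about the lists. The latter list holds Tcf4, Bst2 and Klk1, which other cells of the kidney also express.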

How the data were processed

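The authors deposited raw read counts for each gene, with 1 library of each population. Per the submitters' processing notes and the labels' protocols, bcl2fastq 2.18.0.12, STAR 2.5.3 against GRCm38 and HTSeq 0.9.1 were used on paired reads of 75 bases after ribosomal RNA reduction. The notes also name DESeq2. The sources used here do not state the annotation release, the strand setting or the count mode. Symbols, segment classes, exon lengths and sequences came from GENCODE M21 on GRCm38, matched without the version. The 5 rows that name no gene entered no library size. Rows naming a gene held 47.9% (R2a) and 50.3% (R2b) of the total.

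Counts were scaled with TMM over all rows (edgeR 4.0.16 in R 4.3.3). Folds are CPM ratios with exact 95% intervals (scipy 1.17.1), and floors are 3 counts per library. Without molecular identifiers, PCR copies are not separate molecules, so both cover counting error only. The call rule was tested on simulated data. Identities came from global alignment (Biopython 1.88). Constant members, other members with 20 or more reads, called members and up to 4 genes with the most reads of each list were named, and others after their values were seen. Members and lists were chosen with earlier results of these data known. Some list genes are not reported here and entered no list count. Alternatives were other scalings (total count, upper quartile, DESeq2 1.42.0), reads minimums, thinning of R2b, added pseudogene segments, other fold rules, levels per kilobase and left-out genes.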

Additional observations from a re-analysis of the deposited data

Results flagged for a closer look

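Rows outside the comparisons held more reads than the limit of 3 behind a count of 0, and 6 of them were segment rows. In R2a, Igkv13-84 and Ighv14-4 had 4 reads each. In R2b, Igkv5-45, Ighv1-12 and Iglj3 had 4 reads each, and the pseudogene segment Ighv1-3 had 5. Apart from Iglj3 each is a variable segment, and all 6 had 0 reads in the other library. For the rows with 4 reads this was fixed in advance, since a row with 5 summed reads would have been a member.

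Reads assigned to no gene were also far above that limit. Reads outside annotated exons made up 41.2% of the R2a total and 38.9% of the R2b total. For reads overlapping several genes the shares were 2.42% and 2.51%, and for reads with several alignments 8.50% and 8.33%. How many of these came from immunoglobulin segments was not tested.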

How the results depend on the processing

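No paired analysis was possible because each population had 1 library. Of 103 recomputed values 79 stayed within the counting interval of the reported value or, for counts, within 1.5 times of it, and 24 moved further. Some of the 79 could not move, because reads minimums and added pseudogene segments leave the ratios of Ighm, Igha and Igkc unchanged. Among the ratios of class sums and of Ighm, Igha and Igkc, none with a reported interval that excluded 1 changed direction. The called variable segments were recomputed only as counts of calls. The 14 calls, 5 higher and 9 lower, were as many under each other scaling. Total-count scaling put the constant ratio at 0.982 (0.935 to 1.03), inside counting error, and Ighm at 1.12. A minimum of 20 reads gave 8 calls with 2 higher, 4 variable segments in R2a and 5 in R2b, constant shares of 97.2% and 94.8% and a kappa share of 100% in R2b, since fewer segments remain. No minimum gave 31 and 31 variable segments and a constant share of 94.4% in R2a. Thinning R2b to the depth of R2a, with members chosen again, gave 11 variable segments in R2b and 8 in R2a. It gave a constant share of 94.0% and a kappa share of 100% in R2b, with fewer reads, and put the joining ratio at 0.980 (0.720 to 1.33). With the members kept and R2b thinned to the immunoglobulin reads of R2a, 17 variable members had reads in R2b, beside 10 in R2a. The kept members had been chosen at the full depth of R2b, so these counts are not matched for depth. Requiring 1 CPM and a ratio of CPM plus 0.5 gave 8 calls, 3 higher and 5 lower. Per kilobase the constant share was 81.4% in R2a and 75.0% in R2b. Leaving out Ighv5-16 moved the variable ratio to 0.790. Leaving out Ighm, an alternative chosen after seeing the data, moved the constant ratio to 0.464 and the constant shares to 70.1% and 74.9%, which turned their order. Variable segments with under 20 reads are limited by depth.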
